A study of Homo sapiens with 8 samples.

Results

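Interferon-stimulated genes and the receptors and transcription factors that control them were examined in BT-549, an established triple negative breast cancer (TNBC) cell line. Members were chosen by name, as 54 symbols of known interferon-induced genes and their regulators, and all 54 were found among the 23228 genes listed in each library. Of these, 49 passed edgeR's filter on low counts and were tested together with 13694 genes in all. OAS1, IFITM2, RSAD2, CMPK2 and IFI44L did not pass it and are given by their counts. Cells received vehicle (DMSO), the leukemia inhibitory factor receptor (LIFR) inhibitor EC359 at 100 nM, the histone deacetylase (HDAC) inhibitor vorinostat at 10 µM, or both drugs at these doses (the combination), for 24 h. All groups were the same line in serum-containing medium, and the labels name no added interferon. Each group held 2 RNA-seq libraries, 8 in all. The labels number the libraries of a group 1 and 2 but do not say whether they came from separate cultures, so p-values measure only the spread between these libraries, which may be technical.

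Interferons are secreted proteins that signal through paired receptor chains, IFNAR1 and IFNAR2 for type I and IFNGR1 and IFNGR2 for type II interferon. Their kinases phosphorylate STAT factors. STAT2 and IRF9 belong to a complex that binds the interferon-stimulated response element (ISRE), whereas STAT dimers bind the gamma-activated site (GAS). The genes switched on in this way block steps of viral infection and present the infected cell to the immune system, and many tumor lines keep a low level of them without added interferon. LIFR signals mainly through STAT3, and HDAC inhibitors raise histone acetylation and change the transcription of many genes.

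Libraries held from 19069450 to 24759041 counts on genes. Members held 0.119% and 0.118% of these counts in the vehicle libraries, 0.0912% and 0.0923% in the EC359 libraries, 0.09% and 0.0917% in the vorinostat libraries and 0.078% and 0.076% in the combination libraries. For the members, libraries 1 and 2 of each group differed by a log2 SD of 0.405 in vehicle, 0.609 in EC359, 0.504 in vorinostat and 0.658 in the combination. The mesenchymal marker VIM was abundant, at 2056 to 9438 CPM (read counts scaled to the size of the library), and the epithelial keratins KRT8 and KRT18 stayed under 10 CPM in all libraries. KRT8 had 1.13 and 1.54 CPM with vehicle, 3.3 and 4.46 with EC359, 9.67 and 4.67 with vorinostat and 1.33 and 9.19 with the combination. KRT18 had 0.944 and 1.03 CPM with vehicle, 1.69 and 1.57 with EC359, 5.71 and 4.55 with vorinostat and 0.716 and 8.01 with the combination. The combination libraries thus disagreed for both keratins. ESR1 and PGR had at most 20 and 1 counts in a library, whereas ERBB2, a receptor that TNBC does not overexpress, had 96.1 and 102 CPM with vehicle and 12 to 15.8 CPM in the libraries with vorinostat. The 5 immune markers PTPRC, CD3E, CD14, CD79A and CLEC4C summed to 0.841 to 1.09 CPM in the vehicle libraries, 0.304 to 0.948 with EC359, 1.13 to 1.36 with vorinostat and 1.84 to 2.46 with the combination. CD3E and CLEC4C were at 0 in 7 of the 8 libraries each, CD14 had 1 and 2 counts with vehicle and 42 and 33 with the combination, and the part of these markers in the results was not tested. In bulk RNA, fewer expressing cells and less RNA per cell cannot be told apart.

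The stretch just before a transcription start of 8 members is shown because ISRE-like letters stand there both in members that rose and in members that fell. For IFIT3, 1 of its 2 promoters is printed, and both hold matches. Each line gives the 170 bases before the start, read 5′ to 3′ on the strand of the gene, from RefSeq on GRCh38.p14, with matches to the motif (GAAA, any 2 bases, GAAA) on either strand in capitals and overlapping matches run together. On the opposite strand the motif reads as TTTC, any 2 bases, TTTC.
ISG15, chr1:1013327-1013496, plus strand: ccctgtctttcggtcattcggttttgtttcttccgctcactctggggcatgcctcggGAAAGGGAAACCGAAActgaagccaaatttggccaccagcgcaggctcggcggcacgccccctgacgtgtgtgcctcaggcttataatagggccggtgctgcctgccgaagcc
HERC5, chr4:88456949-88457118, plus strand: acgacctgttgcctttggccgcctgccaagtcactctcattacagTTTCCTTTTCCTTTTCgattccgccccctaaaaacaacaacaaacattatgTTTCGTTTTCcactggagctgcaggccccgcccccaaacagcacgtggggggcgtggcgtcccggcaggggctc
BST2, chr19:17405631-17405800, minus strand: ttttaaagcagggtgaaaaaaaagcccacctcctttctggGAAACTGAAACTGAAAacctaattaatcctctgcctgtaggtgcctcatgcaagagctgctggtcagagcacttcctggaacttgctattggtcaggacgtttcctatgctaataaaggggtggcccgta
IFI6, chr1:27672193-27672362, minus strand: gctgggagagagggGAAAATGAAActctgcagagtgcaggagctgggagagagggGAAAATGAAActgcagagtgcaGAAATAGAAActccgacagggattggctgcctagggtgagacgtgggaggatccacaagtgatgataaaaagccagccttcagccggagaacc
IFIT1, chr10:89392453-89392622, plus strand: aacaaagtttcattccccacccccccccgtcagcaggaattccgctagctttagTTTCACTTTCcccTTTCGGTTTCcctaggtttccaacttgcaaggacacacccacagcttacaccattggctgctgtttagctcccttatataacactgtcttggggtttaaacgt
IFIT3, chr10:89327827-89327996, plus strand: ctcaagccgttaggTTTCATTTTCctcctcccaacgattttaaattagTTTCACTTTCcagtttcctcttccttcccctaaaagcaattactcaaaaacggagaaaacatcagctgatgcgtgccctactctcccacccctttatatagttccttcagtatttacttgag
IFITM3, chr11:320861-321030, minus strand: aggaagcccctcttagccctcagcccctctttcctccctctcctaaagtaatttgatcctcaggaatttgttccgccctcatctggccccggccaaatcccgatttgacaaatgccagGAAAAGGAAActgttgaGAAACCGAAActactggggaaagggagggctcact
DDX60, chr4:168318753-168318922, minus strand: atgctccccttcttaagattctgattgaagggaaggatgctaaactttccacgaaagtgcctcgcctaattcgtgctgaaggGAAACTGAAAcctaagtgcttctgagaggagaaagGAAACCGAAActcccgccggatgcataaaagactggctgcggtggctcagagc
ISG15, HERC5, BST2 and IFI6 were higher under vorinostat, whereas IFIT3, IFITM3 and DDX60 were lower and IFIT1 was not called. In ISG15, BST2 and HERC5 a pair of matches overlaps in a continuous run.

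RefSeq promoters were held for 43 of the 54 members, and 15 members had more than 1. A gene, member or not, was counted as holding a match if any of its promoters held it. An ISRE match stood in the 250 bases upstream of 23 of these 43 genes (53.5%), against 1014 of 27305 genes in the whole table (3.71%). Matches to GAS, searched as TTC, any 3 bases, GAA, which is its own reverse complement, stood upstream of 11 of the 43 (25.6%), against 8.09% of all genes. Among members with a promoter, an ISRE match stood in 4 of 7 genes called higher under vorinostat, in 6 of 14 called lower and in 11 of 18 tested and not called. Over the whole 300 bases held for each promoter, these were 4 of 7, 8 of 14 and 12 of 18. For EC359, a match stood in the 250 bases of 2 of the 5 members called lower and of 19 of 34 tested and not called. Over 300 bases these were 3 of 5 and 21 of 34. These matches describe the letters in a fixed window and are not binding sites.

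In vehicle, levels per length of transcript (RPKM, which divides CPM by transcript length in kilobases) ranged from 278 for IFITM3 to under 0.1 for 6 members. IRF3 followed at 64.2 RPKM, IFNGR2 at 45 and IFNGR1 at 20.4, and 16 members were at or above 10. ISG15 and IFI6, both small proteins induced early by type I interferon, stood at 18.7 RPKM each. Levels differed widely within families: MX2 had 15.9 RPKM and MX1 0.778, and IFIT5 had 4.74, IFIT3 3.71, IFIT1 2.91 and IFIT2 1.43. OAS3 had 0.27 RPKM, OAS2 0.132, OAS1 0.0431 and OASL 0.0359. In all, 22 of the 54 were below 1 RPKM.

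EC359 alone lowered 5 of the 49 tested members and raised none at the calling rule used throughout, a Benjamini-Hochberg adjusted p under 0.01 in edgeR's quasi-likelihood test together with a log2 fold change beyond 1 in either direction. Of all 13694 genes tested, 3.67% were called in this comparison, 1.94% higher and 1.72% lower, against 10.2% of the members. The genes lowered were IRF1, IFIT1, UBE2L6, PARP9 and DTX3L. Log2 fold changes were negative in 36 of the 49 members and in 7141 of the 13694 genes, with a median of -0.38 against -0.02 over all genes tested. At an unadjusted p under 0.05, 2 members were higher and 18 lower. All genes were not counted at that p, so this split has no background share to be set against. DESeq2 called 1 member higher and 6 lower, and 294 of all genes higher and 275 lower. In a fit of the 4 libraries alone, the calls of IRF1 (adjusted p = 0.0237), IFIT1 (0.015) and UBE2L6 (0.0139) were lost.

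Vorinostat moved members in both directions. It raised 9 and lowered 17 of the 49, and the background was 30.1% of all genes called, 16.8% higher and 13.3% lower, against 53.1% of the members. OASL and BST2 rose most, from near 0, and XAF1 and IFIT3 fell most. The members' median log2 fold change was -0.44, with 0.03 over all genes. With the combination against vehicle, 10 members were higher and 13 lower, with a median of -0.46 against 0.07 over all genes, where 34.8% of all genes were called, 19.5% higher and 15.3% lower, and 46.9% of the members. Against EC359 alone, the combination raised 12 and lowered 13, with 33.7% of all genes called, 19.8% higher and 13.9% lower, and 51% of the members. Comparisons against vehicle share its 2 libraries, and their values are given side by side below. Across the 6 tests, 31 members were called at least once and 18 in none.

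**Figure D1:**
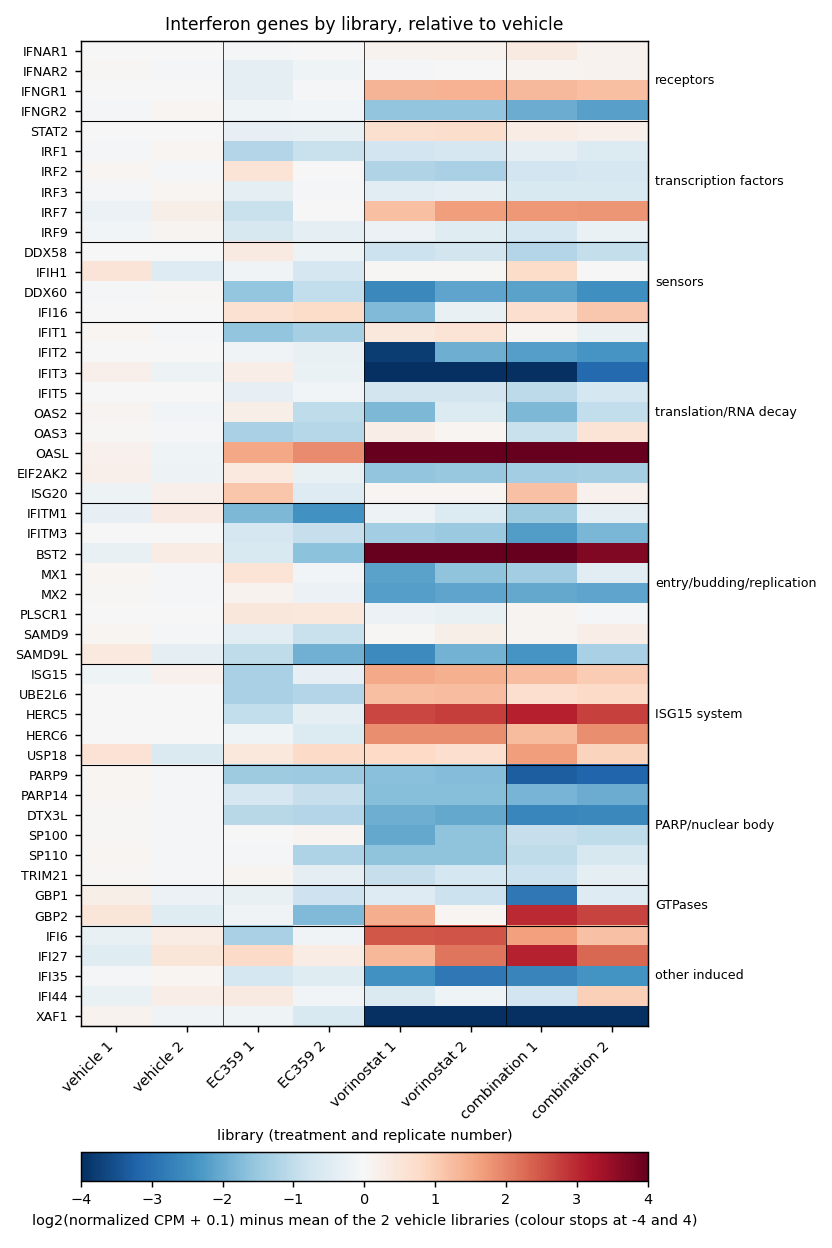
Each tested member is a line and each of the 8 libraries a column, with colour for log2(CPM + 0.1) minus the mean of the 2 vehicle libraries (scale stopped at 4 in either direction), grouped by role. A reader should see OASL, BST2 and HERC5 above vehicle and XAF1, IFIT3 and DTX3L below it in all 4 libraries with vorinostat.

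The receptor chains did not move together. IFNGR1, the ligand-binding chain for type II interferon, had 42.0 and 42.6 CPM with vehicle, 32.5 and 39.8 with EC359, 108 and 112 with vorinostat and 105 and 97.6 with the combination. IFNGR2, its partner chain, had 72.7 and 80.2 CPM with vehicle, 67.7 and 71.5 with EC359, 25.5 and 25.8 with vorinostat and 19.2 and 16.7 with the combination. The libraries with vorinostat thus lay above all others for IFNGR1 and below all others for IFNGR2, with no overlap. IFNGR1 rose by a log2 fold change of 1.38 ± 0.11 (SE, adjusted p = 8.18e-06) with vorinostat and 1.26 ± 0.11 with the combination. IFNGR2 fell by 1.58 ± 0.11 on the log2 scale (adjusted p = 3.24e-06) and by 2.09 ± 0.11. Exons of IFNGR2 overlap TMEM50B on the opposite strand, and whether strand was used in counting is not given in the sources used here.

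The type I receptor chains were close to level. IFNAR1 had 83.2 and 82.3 CPM with vehicle, 79.9 and 83.6 with EC359, 90.4 and 90.8 with vorinostat and 106 and 91.3 with the combination. IFNAR2 had 34.0 and 31.5 CPM with vehicle, 25 and 29.1 with EC359, 31.2 and 33.4 with vorinostat and 35.6 and 35.9 with the combination. Neither gene was called in any of the 6 tests, with log2 fold changes from -0.28 to 0.42.

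Among the transcription factors, IRF1, an activator induced by type II interferon and by STAT dimers, carried the main EC359 change. Its levels were 40.1 and 45.1 CPM with vehicle, 18.8 and 22.7 with EC359, 25.2 and 26.6 with vorinostat and 33.0 and 29.1 with the combination. Both vehicle libraries stood above the other 6. With EC359 it fell by 1.04 ± 0.14 on the log2 scale (adjusted p = 0.00105), and the call was lost without vehicle library 2 (adjusted p = 0.0179) and, on the fold threshold, without EC359 library 1 (log2 fold change -0.90), and in a fit of the 4 libraries alone (0.0237). Vorinostat gave -0.72 ± 0.14 (adjusted p = 0.00131) and the combination -0.45 ± 0.13 (adjusted p = 0.0138), both within the fold threshold. With vorinostat present, EC359 gave 0.26 ± 0.14 (adjusted p = 0.179).

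The difference between the effects of EC359 with and without vorinostat, the interaction, was 1.30 ± 0.19 on the log2 scale for IRF1 (adjusted p = 0.00549). It was the only member called in this test, where 2.1% of all genes were, 1.62% higher and 0.482% lower. The call was lost without any 1 of the 6 vehicle, vorinostat and combination libraries, with adjusted p-values from 0.0275 to 0.0695, when scaled by total counts (0.0107) and under the replicate block (0.0106). Over the 49 members the median interaction was 0.42, against 0.02 over all genes, and 40 were positive, as were 7051 of the 13694 genes tested. The vehicle libraries enter this test and both comparisons of a single drug with vehicle, so these values are not independent. At an unadjusted p under 0.05, 16 members were positive and 2 negative. All genes were not counted at that p, so this split has no background share to be set against.

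IRF7, the factor that amplifies type I interferon transcription, had 2.55 and 3.5 CPM with vehicle, 1.57 and 2.94 with EC359, 7.04 and 9.77 with vorinostat and 10.3 and 10.5 with the combination. It rose by 1.48 ± 0.30 with vorinostat (adjusted p = 0.00193) and by 1.78 ± 0.30 with the combination (adjusted p = 0.000569). The vorinostat call was lost without vehicle library 1 (adjusted p = 0.0244) or vorinostat library 2 (0.0248). IRF2, which competes with IRF1 for its sites, had 24.4 and 21.9 CPM with vehicle, 33.5 and 22.7 with EC359, 10.0 and 9.43 with vorinostat and 13.6 and 14.6 with the combination. It fell with vorinostat by 1.25 ± 0.19 on the log2 scale (adjusted p = 0.000363), and the combination gave -0.71 ± 0.19, within the fold threshold.

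STAT2 and IRF9, both part of the ISRE-binding complex, were not called in any test. STAT2 had 31.1 and 31.6 CPM with vehicle, 24.9 and 25.3 with EC359, 48.7 and 51.3 with vorinostat and 38.4 and 36.5 with the combination, so that the 4 groups did not overlap. Its vorinostat log2 fold change was 0.67 ± 0.10 (adjusted p = 0.000335), under the fold threshold. IRF9 had 19.0 and 21.6 CPM with vehicle, 12.8 and 15.3 with EC359, 17.2 and 14.5 with vorinostat and 12.5 and 16.9 with the combination. IRF3, which is activated by sensors rather than induced, had 97.0 and 108 CPM with vehicle, 77.7 and 97.9 with EC359, 75.4 and 80 with vorinostat and 66.9 and 67.6 with the combination. Its combination log2 fold change was -0.61 ± 0.12 (adjusted p = 0.00184), and its exons overlap BCL2L12 on the opposite strand.

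**Figure D2:**
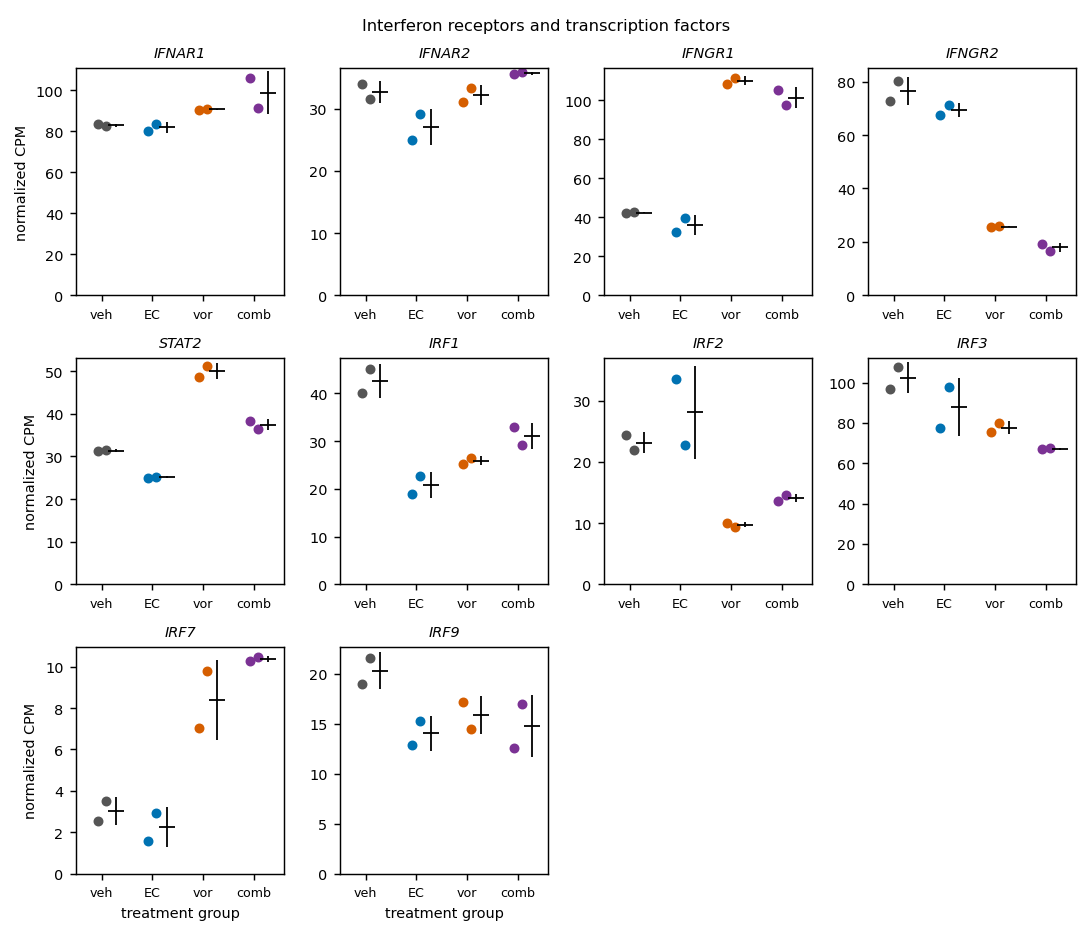
CPM of the 4 receptor chains and the 6 transcription factors with vehicle (veh), EC359 (EC), vorinostat (vor) and the combination (comb), with a point for each of the 2 libraries and the mean ± SD beside them. IFNGR1 and IFNGR2 separate in opposite directions in the groups with vorinostat, and IRF1 is highest in both vehicle libraries.

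Of the 4 sensors of viral nucleic acid, vorinostat lowered DDX60, and the combination lowered DDX60 and DDX58. DDX60, a helicase that assists the RNA sensor encoded by DDX58 (RIG-I), had 5.57 and 5.98 CPM with vehicle, 1.90 and 2.84 with EC359, 0.874 and 1.27 with vorinostat and 1.23 and 0.97 with the combination. Both vehicle libraries stood above all 6 others. It fell by 2.41 ± 0.31 on the log2 scale with vorinostat (adjusted p = 0.000142) and by 2.39 ± 0.32 with the combination, whereas the EC359 value of -1.29 ± 0.29 missed the threshold (adjusted p = 0.0159). DDX58 fell by 1.07 ± 0.22 with the combination (adjusted p = 0.00196), a call lost without vehicle library 1 (0.0129), vehicle library 2 (0.0115) or combination library 1 (0.0173). Vorinostat alone gave -0.81 ± 0.21 for DDX58. IFIH1, which encodes the sensor MDA5, and IFI16, a DNA sensor, had 0.36 to 3.27 CPM over the 8 libraries and were not called.

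OASL, an OAS relative with ubiquitin-like repeats that enhances RIG-I signaling, showed the largest rise of all members. It had 3 and 2 counts in the vehicle libraries (0.142 and 0.0934 CPM), 13 and 14 with EC359 (0.536 and 0.71 CPM), 243 and 273 with vorinostat (12.5 and 11.6 CPM) and 403 and 333 with the combination (20.6 and 17.0 CPM). The ratio of summed counts to vehicle, scaled for library size, was 102 with vorinostat, with an exact 95% interval of 43.5 to 316, and 160 with the combination (68.3 to 495). These intervals cover counting error only. In the fit, the log2 fold changes were 6.61 ± 0.31 (adjusted p = 4.26e-07) and 7.25 ± 0.30 (adjusted p = 1.48e-07). EC359 alone gave 2.33 ± 0.47 (adjusted p = 0.0102), outside the threshold. OASL lies on chromosome 12 from 121455566 to 121477049 (GRCh37, minus strand), apart from the OAS1, OAS3 and OAS2 cluster of the same chromosome.

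That cluster, whose products make the oligoadenylate signal for RNase L, did not show this rise. OAS1 had 1 to 8 counts in a library and was not tested, OAS2 had 2 to 18 counts, and OAS3 had 1.84 and 1.73 CPM with vehicle and 2.16 and 1.87 with vorinostat. The kinase gene EIF2AK2 (PKR), which halts translation on double-stranded RNA, had 53.2 and 40.8 CPM with vehicle and 15.4 to 18.6 in the libraries with vorinostat. It fell by 1.57 ± 0.22 on the log2 scale with vorinostat (adjusted p = 0.000206) and by 1.38 ± 0.22 with the combination. ISG20, a 3′ exonuclease, was not called in any test.

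The IFIT genes, whose products bind foreign RNA and block its translation, lie side by side on the plus strand of chromosome 10 and behaved differently. On GRCh37, IFIT2 spans 91043451 to 91069028, IFIT3 91087064 to 91137230, IFIT1 91152303 to 91166244 and IFIT5 91174325 to 91181362, with gaps of 18, 15.1 and 8.08 kb. IFIT3 had 10.1 and 7.61 CPM with vehicle, 10.6 and 7.30 with EC359, 0.463 and 0.425 with vorinostat and 0.358 and 0.919 with the combination. Summed counts fell from 377 with vehicle to 19 with vorinostat, a 20-fold decrease (exact 95% interval 12.6 to 33.6, counting error only). Its log2 fold changes were -4.30 ± 0.40 with vorinostat (adjusted p = 1.7e-05) and -3.78 ± 0.38 with the combination, the latter being -4.66 without combination library 2.

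IFIT2 had 4.86 and 4.86 CPM with vehicle, 4.37 and 3.96 with EC359, 0.257 and 1.19 with vorinostat and 0.972 and 0.868 with the combination. It fell by 2.68 ± 0.46 on the log2 scale with vorinostat (adjusted p = 0.000722) and by 2.39 ± 0.45 with the combination, the latter call being lost without combination library 1 (0.0112) or 2 (0.0131). The vorinostat value was -2.03 without vorinostat library 1 and -4.22 without vorinostat library 2, with the call kept in both. IFIT1, in contrast, had 13.4 and 11.7 CPM with vehicle, 4.08 and 4.97 with EC359, 17.0 and 18.2 with vorinostat and 12.8 and 10.5 with the combination. Only the EC359 libraries of IFIT1 stood apart at the low end. It fell by 1.47 ± 0.18 on the log2 scale with EC359 (adjusted p = 0.000687), a call lost without vehicle library 1 (0.0106) and in a fit of the 4 libraries alone (0.015). With vorinostat its log2 fold change was 0.49 ± 0.17 (adjusted p = 0.0266), and the combination was 1.37 ± 0.18 above EC359 alone (adjusted p = 0.000134). IFIT5 gave -0.73 ± 0.16 with vorinostat (adjusted p = 0.00286) and -0.87 ± 0.16 with the combination, under the fold threshold. The promoters printed above hold ISRE matches in both IFIT1 and IFIT3. Exons of IFIT2 and IFIT3 overlap LIPA on the opposite strand.

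**Figure D3:**
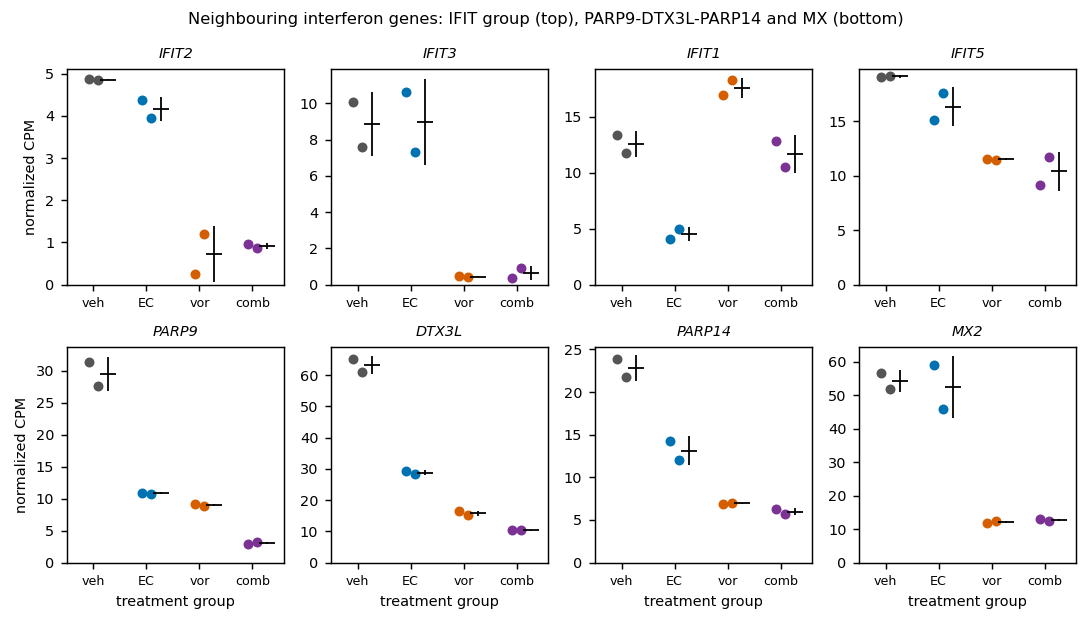
CPM of the 4 IFIT genes, PARP9, DTX3L and PARP14 of chromosome 3, and MX2 in the 4 treatment groups, with a point for each library and the mean ± SD. IFIT2 and IFIT3 are near 0 in the 4 libraries with vorinostat, where IFIT1 stays at 10.5 to 18.2 CPM.

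The entry, budding and replication inhibitors also split. BST2 (tetherin), which holds budding virions to the membrane, rose from 6 and 10 counts with vehicle (0.283 and 0.467 CPM) and 5 and 1 with EC359 (0.206 and 0.0507 CPM) to 315 and 328 with vorinostat (16.2 and 13.9 CPM) and 150 and 116 with the combination (7.67 and 5.92 CPM). The ratio to vehicle was 39.8 with vorinostat (exact 95% interval 24.3 to 70.1, counting error only) and 18.1 with the combination (10.9 to 32.1). Log2 fold changes were 5.30 ± 0.34 (adjusted p = 1.86e-06) and 4.16 ± 0.35. It lies on chromosome 19 from 17513748 to 17516439 (GRCh37, minus strand), and its promoter is among those printed above. When EC359 was added to vorinostat it fell by 1.15 ± 0.24 on the log2 scale (adjusted p = 0.00739). That call was lost without any 1 of the 6 vehicle, vorinostat and combination libraries, with adjusted p-values of 0.0149 to 0.0813.

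IFITM3, which blocks fusion of viruses in endosomes, was the member with the highest level and fell in the groups with vorinostat. It had 172 and 167 CPM with vehicle, 105 and 89.5 with EC359, 64.2 and 60.7 with vorinostat and 35.8 and 48.0 with the combination, and no 2 groups overlapped. Its log2 fold changes were -0.80 ± 0.14 with EC359 (adjusted p = 0.00506, under the fold threshold), -1.44 ± 0.14 with vorinostat (adjusted p = 2.53e-05) and -2.02 ± 0.15 with the combination (adjusted p = 2.86e-06). IFITM1 had 0.254 to 2.29 CPM and IFITM2 at most 10 counts. Since the IFITM genes are similar in sequence and reads were 50 bp, the level of each single IFITM gene is uncertain.

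The dynamin-like GTPases MX1 and MX2, which trap viral nucleocapsids, are neighbours on chromosome 21, and MX2 was far the more abundant. MX2 had 56.6 and 51.9 CPM with vehicle, 59.2 and 45.9 with EC359, 11.8 and 12.4 with vorinostat and 13.0 and 12.5 with the combination. It fell by 2.16 ± 0.15 on the log2 scale with vorinostat (adjusted p = 2.65e-06) and by 2.09 ± 0.15 with the combination, and EC359 gave -0.05 ± 0.14. MX1 had 2.27 and 2.05 CPM with vehicle and 0.411 and 0.637 with vorinostat. Its fall of 2.01 ± 0.47 on the log2 scale with vorinostat (adjusted p = 0.0047) was lost without any 1 of the 4 vehicle and vorinostat libraries (0.0183 to 0.0403), and its exons overlap TMPRSS2 on the opposite strand. MX2 and MX1 lie 10.6 kb apart on the same strand.

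SAMD9L, an antiviral relative of SAMD9, had 57 and 32 counts with vehicle (2.69 and 1.49 CPM), 23 and 9 with EC359 (0.948 and 0.456 CPM), 5 and 11 with vorinostat (0.257 and 0.467 CPM) and 6 and 15 with the combination (0.307 and 0.766 CPM). It fell with vorinostat by 2.48 ± 0.61 on the log2 scale (adjusted p = 0.00582), and this was lost without any 1 of the 4 vehicle and vorinostat libraries (0.0115 to 0.0637) and with the replicate block (0.0112). SAMD9, its neighbour at 12 kb, had 20.2 and 18.4 CPM with vehicle, 14.0 and 10.4 with EC359, 19.8 and 23.0 with vorinostat and 20.9 and 23.4 with the combination, and was not called. PLSCR1, a membrane scramblase, was likewise not called. RSAD2 (viperin), which makes a chain-terminating nucleotide, and its neighbour CMPK2 had at most 2 and 8 counts in a library and were not tested.

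In the ISG15 system, the members called under vorinostat all rose. ISG15 is a ubiquitin-like protein, UBE2L6 the enzyme that carries it, HERC5 the ligase that attaches it, HERC6 a HERC5 relative and USP18 the protease that removes it. Vorinostat raised 4 of these 5, with 16.8% of all genes called higher, and the combination 3 of 5, with 19.5% of all genes higher. Their CPM summed to 29.8 and 31.9 with vehicle, 12.9 and 18.7 with EC359, 85.9 and 84.6 with vorinostat and 71.0 and 65.6 with the combination.

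ISG15 had 10.6 and 13.3 CPM with vehicle, 4.74 and 9.43 with EC359, 34.4 and 32.3 with vorinostat and 28 and 23.9 with the combination. It rose by 1.48 ± 0.26 with vorinostat (adjusted p = 0.000881), a call lost without vehicle library 1 (0.0133), and by 1.12 ± 0.26 with the combination (adjusted p = 0.00408), a call lost without any 1 of the 6 vehicle, vorinostat and combination libraries (0.0116 to 0.0457). HERC5 had 1.56 and 1.54 CPM with vehicle, 0.742 and 1.17 with EC359, 10.5 and 11 with vorinostat and 14.0 and 10.9 with the combination. Every library with vorinostat was above every library without it for HERC5, and the log2 fold changes were 2.79 ± 0.24 (adjusted p = 9.72e-06) and 3.0 ± 0.24 (adjusted p = 4.88e-06). HERC6, which lies 14 kb from HERC5 on chromosome 4, had 0.566 and 0.56 CPM with vehicle, 0.495 and 0.355 with EC359, 2.31 and 2.29 with vorinostat and 1.48 and 2.3 with the combination. It rose by 2.02 ± 0.40 (adjusted p = 0.00166) and 1.74 ± 0.40 (0.00398). The vorinostat call for HERC6 was lost without any 1 of the 4 vehicle and vorinostat libraries (0.0128 to 0.0189), and the combination call without any 1 of these 4 or combination library 2 (0.0128 to 0.033).

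UBE2L6 was called in opposite directions by the single drugs. It had 16.7 and 16.3 CPM with vehicle, 6.60 and 7.25 with EC359, 38.1 and 38.6 with vorinostat and 26.4 and 27.9 with the combination, and the 4 groups did not overlap. It fell by 1.25 ± 0.13 on the log2 scale with EC359 (adjusted p = 0.000219; 0.0139 in a fit of the 4 libraries alone), and rose by 1.22 ± 0.12 with vorinostat (adjusted p = 2.18e-05). The combination stood between vorinostat and vehicle, with a log2 fold change of 0.72 ± 0.12 over vehicle (adjusted p = 0.000517), under the fold threshold. Its interaction was 0.76 ± 0.17 (adjusted p = 0.0331), which did not pass. USP18 had 3 to 20 counts in a library and was not called.

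**Figure D4:**
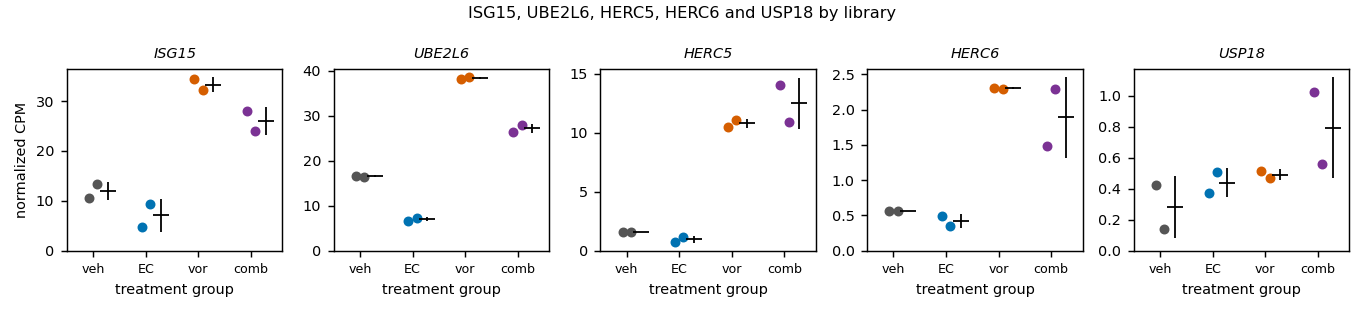
CPM of ISG15, UBE2L6, HERC5, HERC6 and USP18 in the 4 treatment groups, with a point for each of the 2 libraries and the mean ± SD. The vorinostat and combination libraries of ISG15, UBE2L6, HERC5 and HERC6 lie above all vehicle and EC359 libraries.

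PARP9 and DTX3L, which encode an ADP-ribosyltransferase and the ubiquitin ligase it binds, fell with each treatment. PARP9 had 31.4 and 27.6 CPM with vehicle, 10.9 and 10.8 with EC359, 9.15 and 8.84 with vorinostat and 2.92 and 3.16 with the combination. DTX3L had 65.3 and 61.1 CPM with vehicle, 29.3 and 28.2 with EC359, 16.3 and 15.1 with vorinostat and 10.3 and 10.5 with the combination. In both genes the 4 groups followed the same order with no overlap. For PARP9 the log2 fold changes were -1.44 ± 0.14 with EC359 (adjusted p = 0.000157), -1.71 ± 0.14 with vorinostat (adjusted p = 7.46e-06) and -3.28 ± 0.16 with the combination (adjusted p = 3.01e-07). For DTX3L they were -1.13 ± 0.11, -2.01 ± 0.11 and -2.61 ± 0.12.

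When EC359 was added to vorinostat, PARP9 fell by 1.56 ± 0.16 on the log2 scale (adjusted p = 0.000224), and the interaction was -0.12 ± 0.21 (adjusted p = 0.806). For DTX3L this step was -0.60 ± 0.12 (adjusted p = 0.00637), under the fold threshold. The genes are arranged head to head on chromosome 3, PARP9 from 122246771 to 122283424 on the minus strand and DTX3L from 122283185 to 122294050 on the plus strand, and overlap by 240 bases. Since the use of strand in counting is unknown, reads in their overlapping exons cannot be assigned to either.

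The other genes of this role group also had lower values with vorinostat. For TRIM21, an antibody receptor and ubiquitin ligase, the log2 fold change of -0.82 ± 0.23 (adjusted p = 0.0111) missed the threshold. PARP14 had 23.9 and 21.8 CPM with vehicle, 14.3 and 12 with EC359, 6.89 and 6.97 with vorinostat and 6.24 and 5.67 with the combination, and fell by 1.72 ± 0.15 (adjusted p = 1.35e-05) and 1.94 ± 0.16 on the log2 scale. SP100, a core protein of PML nuclear bodies, had 49.3 and 46.7 CPM with vehicle, 48.6 and 51.4 with EC359, 11.6 and 15.5 with vorinostat and 25.5 and 23.6 with the combination. It fell by 1.82 ± 0.15 with vorinostat (adjusted p = 7.16e-06), whereas the combination stood 0.85 ± 0.15 above vorinostat (adjusted p = 0.00332, under the fold threshold). SP110, an SP100 relative, fell by 1.63 ± 0.34 on the log2 scale with vorinostat (adjusted p = 0.00238), a call lost without any 1 of the 4 vehicle and vorinostat libraries (0.0101 to 0.0187). Exons of SP110 overlap SP140 on the opposite strand.

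GBP2, a guanylate-binding GTPase that attacks vacuoles of pathogens, had 8 and 3 counts with vehicle (0.378 and 0.14 CPM), 5 and 0 with EC359 (0.206 and 0 CPM), 16 and 6 with vorinostat (0.823 and 0.255 CPM) and 50 and 41 with the combination (2.56 and 2.09 CPM). Both combination libraries were above all others. The ratio to vehicle was 9 (exact 95% interval 4.8 to 18.7, counting error only), and the log2 fold change 3.14 ± 0.77 (adjusted p = 0.00521). This call was lost without any 1 of the 4 vehicle and combination libraries (0.0215 to 0.06), and the value was 3.99 without vehicle library 1, and annotated exons of GBP2 overlap GBP7 on the same strand. GBP1 had at most 16 counts in a library and was not called.

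XAF1, which counters an inhibitor of caspases, showed the largest fall. It had 59.1 and 47.8 CPM with vehicle, 47.2 and 34.8 with EC359, 1.39 and 0.892 with vorinostat and 2.25 and 1.53 with the combination. It fell by 5.57 ± 0.28 on the log2 scale with vorinostat (adjusted p = 5.85e-07) and fell by 4.82 ± 0.26 with the combination (adjusted p = 5.71e-07), a fold of 47.4 and 28.2. It lies on chromosome 17 from 6658766 to 6678966 (GRCh37, plus strand). IFI35, a leucine zipper protein, had 17.9 and 20.2 CPM with vehicle, 11.7 and 13.5 with EC359, 3.5 and 2.51 with vorinostat and 2.97 and 3.57 with the combination. It fell by 2.67 ± 0.21 (adjusted p = 5.56e-06) and 2.54 ± 0.21 on the log2 scale. For XAF1 and IFI35 alike, the libraries with vorinostat stood far below those without it.

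IFI6, a mitochondrial and endoplasmic reticulum protein, went the other way, with 11.9 and 18.4 CPM with vehicle, 5.98 and 13.3 with EC359, 84.0 and 84.7 with vorinostat and 46.1 and 33.1 with the combination. It rose by 2.48 ± 0.33 with vorinostat (adjusted p = 0.00016) and by 1.39 ± 0.33 with the combination (adjusted p = 0.00429). The combination call was lost when vehicle library 1 or any 1 of the vorinostat and combination libraries was left out (0.011 to 0.056). IFI27, a small protein of the same family, had 1 and 4 counts with vehicle (0.0472 and 0.187 CPM), 6 and 3 with EC359 (0.247 and 0.152 CPM), 8 and 19 with vorinostat (0.411 and 0.807 CPM) and 32 and 18 with the combination (1.64 and 0.919 CPM). Its ratio of combination to vehicle was 10.9 (exact 95% interval 4.37 to 35, counting error only), and the log2 fold change was 3.38 ± 0.74 (adjusted p = 0.00282), lost without vehicle library 1 (log2 fold change 2.73, adjusted p = 0.0375), vehicle library 2 (4.58, 0.0119) or combination library 1 (2.86, 0.026). IFI44 was not called, and IFI44L, its neighbour at 3.65 kb, had at most 10 counts.

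**Figure D5:**
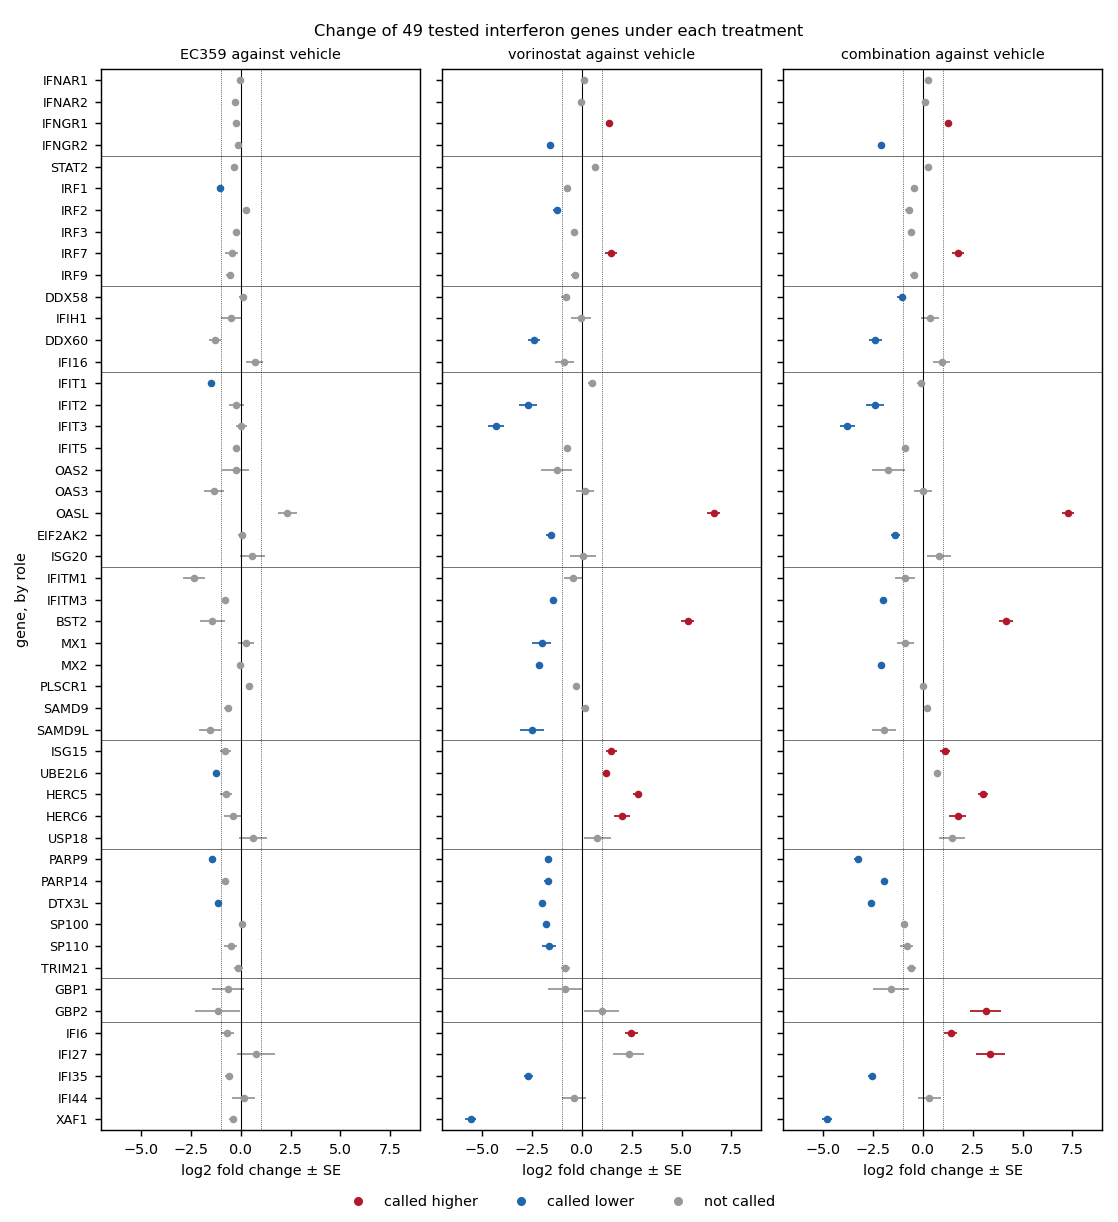
Log2 fold change ± SE of each tested member for EC359, vorinostat and the combination against vehicle, with dotted lines at the threshold of 1 in either direction. Of 49 EC359 values 36 lie below 0, whereas vorinostat and combination values extend from XAF1, at -5.57 and -4.82, to OASL, at 6.61 and 7.25.

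Adding EC359 to vorinostat called 2 members, PARP9 and BST2, both lower, and raised none, where 4.25% of all genes were called, 3.37% higher and 0.876% lower, and 4.08% of the members. The members' median was 0.12, against -0.01 over all genes. At an unadjusted p under 0.05, 7 members were higher and 9 lower. All genes were not counted at that p, so these counts have no background share to be set against. DESeq2 called 1 member higher and 3 lower, and 454 of all genes higher and 178 lower. Leaving out any 1 of the 2 vehicle libraries, vorinostat library 1 or either combination library left 1 member called, and leaving out either EC359 library left 5.

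Against EC359 alone, the combination raised BST2 by 5.58 ± 0.41 on the log2 scale (adjusted p = 3.52e-06; 6.89 without EC359 library 1 and 4.99 without EC359 library 2), OASL by 4.92 ± 0.23, HERC5 by 3.72 ± 0.25 and UBE2L6 by 1.97 ± 0.13. GBP2 (4.31 ± 0.87, adjusted p = 0.00182) and IFI27 (2.62 ± 0.67, adjusted p = 0.00673) also rose. The summed counts of GBP2 were 91 against 5, a ratio of 20.4 (exact 95% interval 8.45 to 64.5, counting error only), and all 5 were in EC359 library 1. Its call was lost without combination library 1 (0.0144), and its log2 fold change was 3.44 without EC359 library 2. The IFI27 call was lost without any 1 of the 8 libraries (0.0123 to 0.0598), with the replicate block (0.0128) and in a fit of the 4 libraries alone (0.0103). Log2 fold changes of those that fell were -4.44 ± 0.26 for XAF1, -3.80 ± 0.38 for IFIT3 (-4.70 without combination library 2), -2.17 ± 0.45 for IFIT2, -2.04 ± 0.15 for MX2 and -1.95 ± 0.11 for IFNGR2. The IFIT2 call was lost without combination library 1 (0.0163) or 2 (0.0191).

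Other genes of the interferon pathway were taken from a list of 74, of which 73 were found in the files and 47 were tested. EC359 raised 1 of these and lowered 1, vorinostat raised 10 and lowered 11, and the combination raised 11 and lowered 11. The share of the list called was 4.26% for EC359, near the 3.67% of all genes, 44.7% against 30.1% for vorinostat and 46.8% against 34.8% for the combination. The combination raised 5 over vorinostat (10.6% called, against 4.25% of all genes). Of 10 interferon ligands, IFNA1, IFNA2, IFNK, IFNW1, IFNG, IL28A and IL28B had 0 counts in every library. IFNB1, the first type I interferon made on infection, had 0 counts in the 4 libraries without vorinostat, 1 and 1 with vorinostat and 0 and 6 with the combination, and IL29 at most 2. IFNE, the type I interferon of epithelia, had 2 to 20 counts in a library and was not called.

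SOCS3, an inhibitor of cytokine receptors that STAT factors induce, had 38.5 and 41 CPM with vehicle, 20 and 26 with EC359, 88.5 and 87.9 with vorinostat and 137 and 138 with the combination. Its EC359 libraries lay below vehicle and its combination libraries above vorinostat. EC359 alone gave a log2 fold change of -0.79 ± 0.13 and its addition to vorinostat 0.64 ± 0.12, both under the fold threshold. The interaction was 1.43 ± 0.18 (adjusted p = 0.00229). In this test 2 of the 47 tested genes of the list were called (4.26%), against 2.1% of all genes. The SOCS3 interaction was not recomputed under the alternative settings.

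In the rest of the list, the rises under vorinostat with the largest folds started near 0. GBP5, a guanylate-binding GTPase, went from 1 and 1 counts with vehicle to 33 and 40 with vorinostat and 46 and 40 with the combination. Its ratio to vehicle was 36.2 (exact 95% interval 9.66 to 304, counting error only) and 46.8 (12.6 to 393). LAMP3, a lysosomal membrane protein of mature dendritic cells, had 2 and 2 counts with vehicle, 47 and 33 with vorinostat and 52 and 48 with the combination, with ratios of 19.8 (7.45 to 74.5) and 27.2 (10.3 to 102). IL28RA, the receptor chain for type III interferon, had 2 and 0 counts with vehicle, 12 and 16 with vorinostat and 1 and 1 with the combination, and its vorinostat ratio was 13.9 (3.5 to 120). BATF2, a transcription factor, rose with the combination by 4.20 ± 0.49 on the log2 scale and stood 1.96 ± 0.39 above vorinostat (adjusted p = 0.00653).

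TLR3, the endosomal sensor of double-stranded RNA, fell by 3.5 ± 0.46 on the log2 scale with vorinostat, EPSTI1 fell by 3.47 ± 0.26 and NMI, the binding partner of IFI35, fell by 3.14 ± 0.29. With the combination EPSTI1 fell by 3.98 ± 0.27, GBP3 fell by 3.32 ± 0.66 and TLR3 fell by 3.27 ± 0.45. GBP3 had few counts, 16 and 19 with vehicle and 1 and 2 with the combination. Its ratio was a 10.7-fold decrease (exact 95% interval 3.38 to 54.5, counting error only). Summed counts of TLR3 were 149 with vehicle, 13 with vorinostat and 14 with the combination. These were decreases of 11.6-fold (6.56 to 22.2) and 9.78-fold (5.65 to 18.3). EPSTI1 also fell with EC359 alone, by 1.35 ± 0.22 (adjusted p = 0.00329), and SLFN5, a growth-regulating Schlafen gene, rose with it by 1.43 ± 0.22 (adjusted p = 0.00282). SLFN5 rose more with vorinostat, by 3.15 ± 0.21 (adjusted p = 2.41e-06), and with the combination, by 3.13 ± 0.21. Adding EC359 to vorinostat gave -0.01 ± 0.17 for SLFN5, which was not called. TRIM25, the ubiquitin ligase that activates RIG-I, had 86.2 and 87.9 CPM with vehicle, 134 and 148 with EC359, 154 and 154 with vorinostat and 394 and 363 with the combination, and stood 1.30 ± 0.09 above vorinostat on the log2 scale (adjusted p = 2.4e-05). IRF2BP2, a partner of IRF2, and TRIM5, a restriction factor of retroviruses, were also raised in that step, by 1.13 ± 0.09 and 1.06 ± 0.20.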

How the data were processed

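BT-549 RNA was sequenced as 50 bp single-end reads. Alignment to hg19 was done by the authors with TopHat2 2.0.8b, who deposited raw read counts per RefSeq gene symbol from HTSeq, 1 list per library, without normalization. The HTSeq version and strand setting are not given in the sources used here. The 5 summary lines of HTSeq were left out, and 85.1% to 88.1% of unique alignments were on genes. Counting error falls with depth, so members under about 20 counts in a library are the least precise.

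Counts were filtered by filterByExpr, scaled by TMM (factors 0.955 to 1.03) and fitted in edgeR 4.0.16 (R 4.3.3) by quasi-likelihood with 1 mean per group over the 8 libraries. P-values were adjusted by Benjamini-Hochberg over 13694 genes. Genes were called when the adjusted p was below 0.01 and the log2 fold change beyond 1 in either direction, interactions by the adjusted p alone. The SE is the absolute log2 fold change over the square root of F. CPM use TMM-scaled library sizes and RPKM the canonical transcript length in GENCODE v44 on GRCh37, the build that hg19 shares. DESeq2 1.42.0, other scalings, filters and thresholds, a replicate block and each library left out were alternatives, and a crossed block was added after seeing the data. A group with 1 library left was assumed to vary like the others.

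Members and lists were chosen with earlier results of these data known. Values per library are given for the 4 receptors, the 6 transcription factors, called interactions and up to 5 called members with the largest fold in each direction of each comparison, with other members given where a role group needed them. From the pathway list, up to 3 called genes per direction are named, plus the ligands, and SOCS3 and TRIM5, which were chosen after their values were seen. A gene of that list is not reported here. Exact intervals treat summed counts as binomial. Figures were drawn with Python 3.11.15.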

Additional observations from a re-analysis of the deposited data

Results flagged for a closer look

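For IRF1, the effect of EC359 differed with and without vorinostat by the test of the interaction, which was 1.30 on the log2 scale (quasi-likelihood test of edgeR, Benjamini-Hochberg adjusted p = 0.00549). Without vorinostat, IRF1 had 40.1 and 45.1 CPM with vehicle and 18.8 and 22.7 with EC359. With vorinostat, it had 25.2 and 26.6 CPM without EC359 and 33.0 and 29.1 with it. This second step was not called (log2 fold change 0.26 ± 0.14, adjusted p = 0.179), so a rise with EC359 is not shown. The interaction missed the threshold when scaled by total counts (adjusted p = 0.0107) and under the replicate block (0.0106). The interaction was not called after leaving out any 1 of the 6 vehicle, vorinostat and combination libraries, when its adjusted p was 0.0275 to 0.0695.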

How the results depend on the processing

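Of 82 member changes called, 58 kept their call under every alternative listed in the methods other than the crossed block, and none changed sign in 1472 recomputed values, of which 86 missed the threshold, 9 of them outside leaving out a library. For EC359 against vehicle, the 5 members called became 8 without a filter, 8 at an adjusted p under 0.05, 2 in a fit of the 4 libraries alone and 4 to 8 with a library left out. For the combination against vorinostat, the 2 called became 4 with DESeq2, 4 without a filter, 5 at 0.05, 4 with no fold threshold, 4 in a fit of the 4 libraries and 1 to 5 with a library left out. The interaction, with 1 called, gave 0 with total counts, 2 at 0.05, 0 with the replicate block and 0 to 3 with a library left out. With a library left out, vorinostat against vehicle gave 20 to 26, the combination against vehicle 17 to 24 and the combination against EC359 21 to 25. The pathway list with no fold threshold gave 5 called for EC359 in place of 2, 9 in place of 5 for the combination against vorinostat and 31 in place of 18 for the combination against EC359. Of all 13694 genes tested, 1071, 1877 and 7642 passed in these comparisons with no fold threshold. The cause of these shifts was not tested. All genes were not counted without a filter, at 0.05, in a fit of the 4 libraries, with a block or with a library left out. Whether the members shifted more than all genes under those settings is therefore not known. Same-numbered libraries deviated together with correlations of -0.173 to 0.231 over genes, so the numbers were not taken to pair libraries. With the replicate block, 5, 25, 23, 2 and 24 members were called for EC359, vorinostat and the combination against vehicle and for the combination against vorinostat and EC359, and with crossed numbers, 6, 26, 24, 3 and 25, with 1 interaction. Other scalings moved the median over all genes by -0.0879 to 0.0234 on the log2 scale.

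With 2 libraries a group, members under about 20 counts in most libraries, such as GBP1, OAS2, USP18 and IFI27, were measured with wide error, and a gene that was not called is not shown to be unchanged. Reads shared between overlapping genes on opposite strands, and between the IFITM genes, cannot be assigned. The labels name no added interferon, protein was not measured in the files used, and all cells came from 1 line at 1 time point.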
